A study of Mus musculus with 3 samples.

Results

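Ephrins, Slits, netrins and their receptors are guidance molecules that steer axons, blood vessels and migrating cells. The members were taken by gene symbol from the platform annotation. The rule uses no signal values, but it was chosen with earlier results of these data known. They are the EphA and EphB receptors, the ephrin-A and ephrin-B ligands, Slit1 to Slit3, Robo1 to Robo4, Ntn1, Ntn4, Dcc and Unc5a to Unc5d. In all they are 71 probe sets of 35 genes. The array has 18193 genes with a probe set annotated with a single gene symbol, and only such probe sets were used for genes. Ephrins are bound to the cell surface, the A class by a lipid anchor and the B class by a transmembrane segment, and they bind Eph receptor tyrosine kinases on touching cells, with signals in both directions. Slits are secreted and act, mostly as repellents, through Robo receptors. Netrin-1 attracts axons through Dcc and repels them through Unc5 receptors. In a growing tooth, sensory axons and vessels enter the papilla from its base while odontoblasts form along its outer edge.

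RNA came from the dental papillae, the mesenchyme that becomes dental pulp, of lower first molar germs of ICR mice, an outbred strain. The stages were embryonic day 16 (E16), embryonic day 18 (E18) and postnatal day 3 (P3). The papillae of all stages were isolated with enzymes, more than 20 of them gave each RNA, and the RNA was amplified in 2 cycles before biotin labelling. Each stage has 1 array, so no replicate error exists and no test between stages can be made. Every difference below is between single pooled samples. In such bulk samples, fewer cells of a type and less RNA per cell cannot be told apart.

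The deposited values are ratios to the middle of the 3 arrays, from which a scaled signal was recovered for each probe set in arbitrary units. The lower limit of use, called the floor, was the median of all recovered signals, 82.0. The 81 values of bacterial control probe sets, which have no target in mouse RNA, reached 70.2. Signals of different probe sets cannot be ranked against each other, so each is compared only with itself across stages. A gene is given by its brightest probe set, the one with the highest mean recovered signal. Other probe sets that reached the floor are given beside it where the member passed 2-fold or where they differ from it. Over all genes, single probe sets of 1 gene differed around their mean with an SD of 0.61 (log2 scale) for both E18 and P3 against E16, and of 0.54 for P3 against E18. That spread is the only one available here, and it is between probe sets read on the same arrays. It misses errors shared by a whole array. It also misses differences between pools or amplifications that all probe sets of a gene share, so it is not an error of a stage difference.

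The labelled tissue was checked against its markers. All 10 dental mesenchyme markers with a probe set of a single gene symbol, among them Pax9, Lhx6 and Msx1, reached the floor on all 3 arrays. Epithelial markers were also there, 10 of 11 at E16, 11 at E18 and 10 at P3, and their summed signal was 8342 at E16, 26005 at E18 and 12522.0 at P3. Among the 11 at P3 against E16, 2 passed 2-fold upward and 3 downward, and the median was -0.44 on the log2 scale. The enamel matrix genes Ambn (5376.8) and Amelx (2339.7) made up much of the P3 sum, and without them, a choice made after the values were seen, the sums were 7465.1, 22211.6 and 4805.5. Summed signals of other marker lists were 5053, 2650.1 and 3347 for endothelium, 12519.8, 10259 and 3227 for dividing cells, and 2136, 4257 and 7924 for macrophages, in the order E16, E18, P3. Without Kdr, left out in the same way, the endothelial sums were 2481.6, 1587.9 and 2500.4. The odontoblast markers summed to 1732.2, 6310.5 and 19664.6, and 7 of 7 passed 2-fold upward from E16 to P3, with a median of 2.66. Of all genes, 6.57% passed 2-fold upward and 15.6% downward at P3 against E16. Of 7 neuronal markers, 2 reached the floor at each stage, and of 6 Schwann cell and glial markers 2, 3 and 1. On the E18 array, 16 hybridisation controls read a median 2.20 times their E16 signal, against 1.02 times on the P3 array. What these differences contribute to the members' values was not tested.

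Of the 35 member genes, 27 reached the floor on at least 1 array, 22 of them on all 3. The other 8 (Epha1, Epha8, Epha10, Ephb6, Slit1, Ntn1, Dcc and Unc5a) stayed below it in all probe sets and are not compared. More members were lower than higher with age, 16 against 11 at P3 against E16, as were genes in general (60.1% lower). At P3 against E16, 7 of 27 measured members (25.9%) were at least 2-fold lower and 1 was higher, where 15.6% of all 12190 measured genes were lower and 6.57% higher. The 7 lower genes were Slit2, Robo2, Epha3, Epha4, Efna5, Efnb2 and Unc5b, and the higher one was Slit3. With the median over a gene's measured probe sets in place of the brightest, Epha3 and Unc5b dropped out, which left 5 lower members against 12.3% of all genes. The median log2 difference was -0.41 over the members and -0.17 over all genes. After quantile normalization 5 members and 10.5% of all genes were lower, with medians of -0.17 and 0.02.

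At E18 against E16, 3 of 26 measured members (11.5%) were at least 2-fold lower, against 8.13% of 12030 genes, and 2 (7.69%) were higher, against 8.08%. Both shares lie near those of genes in general. This split of 2 higher and 3 lower became 2 and 1 after median scaling and 2 and 2 after quantile normalization. At P3 against E18, 4 of 27 members (14.8%) were lower, against 11.8% of 12115 genes, and 1 (3.70%) was higher, against 4.08%. Here 1 higher and 4 lower became 1 and 2 under either scaling. The comparisons share arrays, so their counts are not independent of each other.

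**Figure D1:**
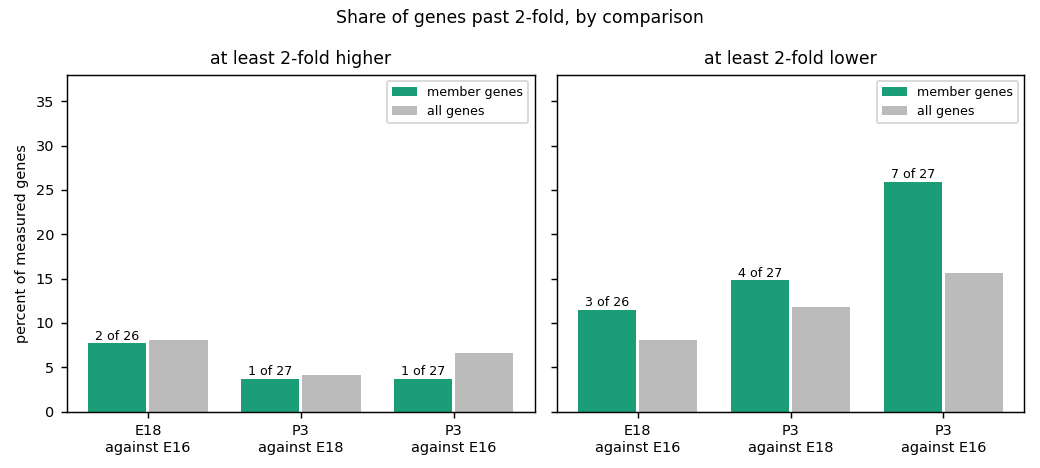
Percent of measured genes at least 2-fold higher (left) or lower (right) in each comparison, for the member genes (green, with counts above the bars) and for all genes (grey). The widest gap in percentage points is that of genes lower at P3 than at E16, 7 of 27 members against 15.6% of all genes.

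The ephrin-A ligands, the lipid-anchored class, were all measured. Efna5, a repellent for many axon types, had signals of 1291.9 at E16, 1239 at E18 and 500.0 at P3. It was level between the embryonic arrays and low at P3, 2.58-fold lower than at E16 and 2.48-fold lower than at E18. Its other probe set did not exceed 22.4. The difference from E16 stayed past 2-fold under all 7 alternative settings, while that from E18 was 1.93-fold after quantile normalization.

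Efna2 went the other way at E18 only, with signals of 88.3, 227.4 and 117.8 in the order E16, E18, P3. That is 2.58-fold higher at E18 than at E16. Its other probe set read 102.6, 135.3 and 78.2, a 1.32-fold difference, so the size rests on the probe set. Efna1, a ligand often found on endothelium and epithelium, was below the floor at E16 (48.2) and above it at E18 (120.1) and P3 (100.1), which gives at least 1.46-fold and at least 1.22-fold. Efna3 (109.9, 147.2 and 103.0) and Efna4 (160.8, 134.4 and 99.4) stayed under 2-fold in every comparison. In the P3 and E18 pair all 5 ephrin-A genes were lower at P3, as were 59.6% of all genes. The 5 had a median log2 difference of -0.52, where that of all genes was -0.15, and Efna5 alone passed 2-fold.

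Among the ephrin-B ligands, which span the membrane and can signal into their own cell, Efnb2 was lower at each later stage in its brightest probe set. This ligand marks arteries and is also made by mesenchyme. Its brightest probe set read 1056.9 at E16, 732.5 at E18 and 429.8 at P3, 2.46-fold lower at P3 than at E16. A second one read 694.6, 356.7 and 386.5, 1.95-fold lower at E18 and 1.80-fold lower at P3 than at E16. From E18 to P3 the 2 disagree, since the second was 1.08-fold higher at P3. The 2 others lay at or below 82.4 on every array. After quantile normalization the brightest gave 1.97-fold. Of the 10 endothelial markers measured at E18 against E16, none was called higher, 5 were lower and 5 under 2-fold, with a median of -0.78. Those counted under 2-fold include Vwf, below the floor at E16 (54.0) and at 145.0 at E18. Its difference is a bound of at least 1.77-fold higher, so it may exceed 2-fold. The share of all genes lower at E18 against E16 was 8.13%. Of the 10 endothelial markers measured at P3 against E16, 1 was higher (6.57% of all genes), 1 lower (15.6%) and 8 under 2-fold, with a median of -0.47. The lower one was Kdr, a receptor for VEGF (2571.2, 1062.3 and 846.3), and the part of endothelium in the Efnb2 and Ephb4 values was not tested.

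Efnb1, the X-linked ephrin that sets boundaries in craniofacial mesenchyme, differed little. Its 3 probe sets read 381.3, 438.4 and 461.3, then 319.0, 250.2 and 372.4, then 262.1, 255.9 and 286.5, each highest at P3 by a small margin. All 3 were 1.09-fold to 1.21-fold higher at P3 than at E16. Efnb3, known from midline structures of the nervous system, read 311.4, 185.5 and 234.4, at most 1.68-fold apart.

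**Figure D2:**
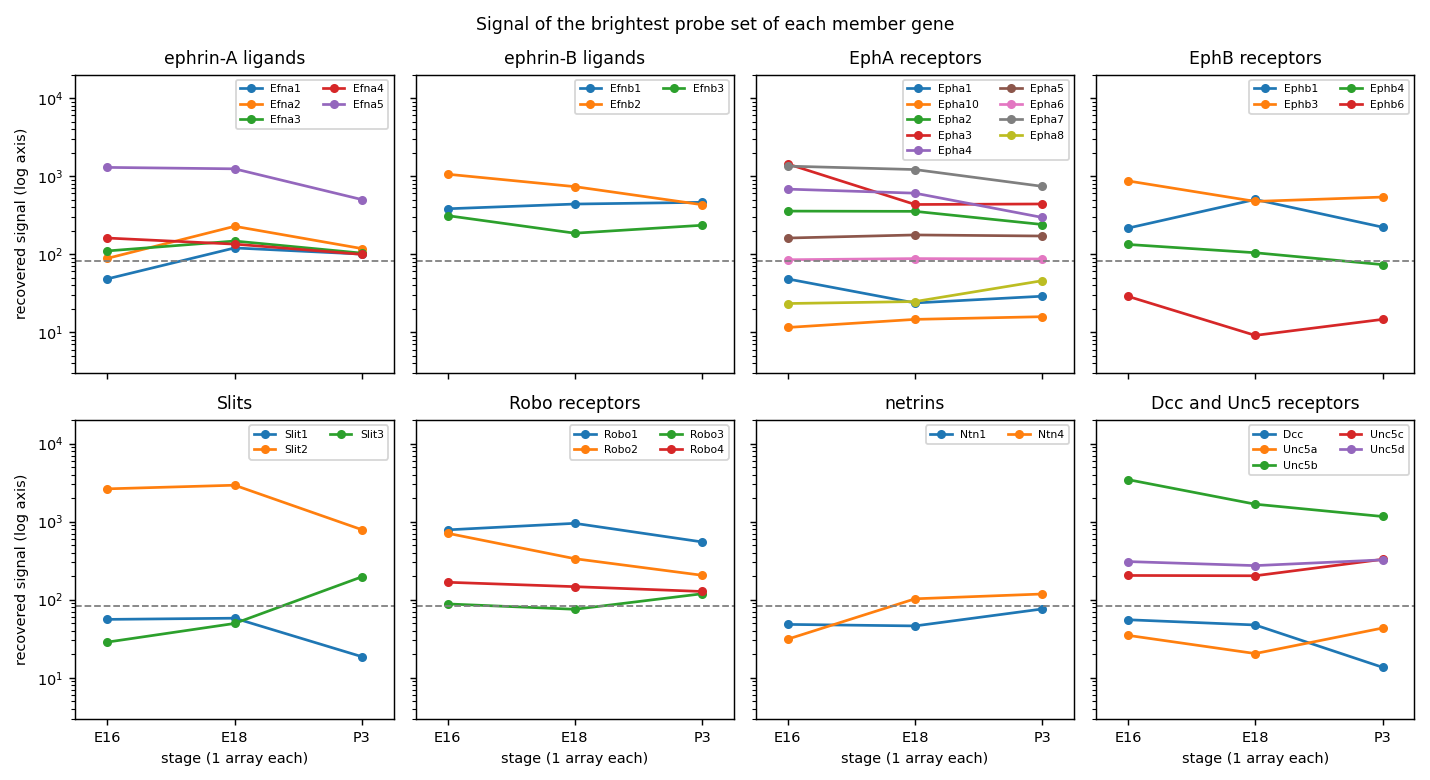
Recovered signal (log axis, arbitrary units) of the brightest probe set of each of the 35 member genes at E16, E18 and P3, 1 array each, in 8 panels by subfamily; the dashed line is the floor of 82.0. Slit2 is low and Slit3 high at P3, and Ephb1 is highest at E18.

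The EphA receptors, which bind mainly ephrin-A ligands, had 6 of 9 genes measured. At P3 against E16, 2 of the 6 were at least 2-fold lower and none higher, with a median of -0.72, where 15.6% of all genes were lower and their median was -0.17. The pair is Epha4 and Epha3, and Epha3 had probe sets that disagree. Epha4, which binds ligands of both classes and guides motor and sensory axons, had 4 probe sets above the floor on every array. The brightest read 680.6 at E16, 604.0 at E18 and 295.1 at P3, and the others read 576.7, 502.5 and 156.1, then 437.4, 330.2 and 226.7, then 182.9, 241.5 and 127.7. In each of the 4 the P3 signal was the lowest, by 2.31-fold, 3.69-fold, 1.93-fold and 1.43-fold against E16. The fifth probe set stayed below the floor and is not compared. After quantile normalization the brightest was 1.87-fold and after median scaling 1.88-fold lower, so the Epha4 direction held and the 2-fold call did not.

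Epha7, a receptor with full-length and truncated forms that can repel or adhere, was lower at P3 in each of the 3 probe sets that reached the floor, by amounts that differed widely. The brightest read 1341.4, 1213 and 738.8, a decrease of 1.82-fold by P3 that stays below the 2-fold threshold. A second, nearly as bright, read 1116.5, 659.8 and 212.9, 5.24-fold lower. Another read 140.4, 148.2 and 43.5, at least 1.71-fold lower, and the last stayed below the floor. The choice of probe set thus decides whether Epha7 passes 2-fold.

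For Epha3, a receptor of mesenchymal cells and motor neurons, the probe sets did not give 1 picture. The brightest read 1430.1 at E16, 432.7 at E18 and 439.3 at P3, 3.30-fold lower at E18 and 3.26-fold lower at P3. Another read 577.5, 344.3 and 681.1, which is 1.68-fold lower at E18 but 1.18-fold higher at P3. These 2 both put E18 below E16, and they disagree on P3. The 2 other probe sets stayed below the floor, at no more than 58.4, and are not compared. With the median over measured probe sets the P3 difference was 1.66-fold.

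Epha2, a receptor typical of epithelia, read 356.0, 353.4 and 239.7, 1.49-fold lower at P3 than at E16. Epha5 (160.8, 176.2 and 170.7) and Epha6 (84.8, 87.7 and 86.7), receptors best known from neurons, were nearly level in their brightest probe set, Epha6 just above the floor. Another Epha5 probe set read 95.7, 42.5 and 34.6, above the floor at E16 alone and at least 1.17-fold lower at P3. Epha1 (at most 48.1), Epha8 (at most 45.7) and Epha10 (at most 15.8) stayed below it.

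Of the EphB receptors, which bind mainly ephrin-B ligands, 4 genes had a probe set annotated with a single gene symbol, and 3 were measured. Ephb2 was not analysed here. Ephb1 was the only member with a 2-fold peak at E18: it read 215.4 at E16, 501.3 at E18 and 221.6 at P3, 2.33-fold higher at E18 than at E16 and 2.26-fold lower again at P3. The last value was 1.98-fold after median scaling. It has 1 probe set, so the peak has no second reading. Most epithelial markers also peaked on that array. Of 11, all 11 were up by 2-fold or more from the E16 array, against 8.08% of all genes. From E18 to P3, 9 of 11 were down by as much, against 11.8% of all genes. The part of epithelium in the Ephb1 value was not tested.

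Ephb3, a receptor of epithelial boundaries and of neural crest cells, read 867.3, 473.9 and 538.6. It was 1.83-fold lower at E18 and 1.61-fold lower at P3 than at E16. Ephb4, the venous partner of Efnb2, read 133.1, 104.2 and 73.4, below the floor at P3 and at least 1.62-fold lower than at E16. The endothelial markers given beside Efnb2 apply here too. Ephb6, which lacks kinase activity, did not exceed 28.8.

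**Figure D3:**
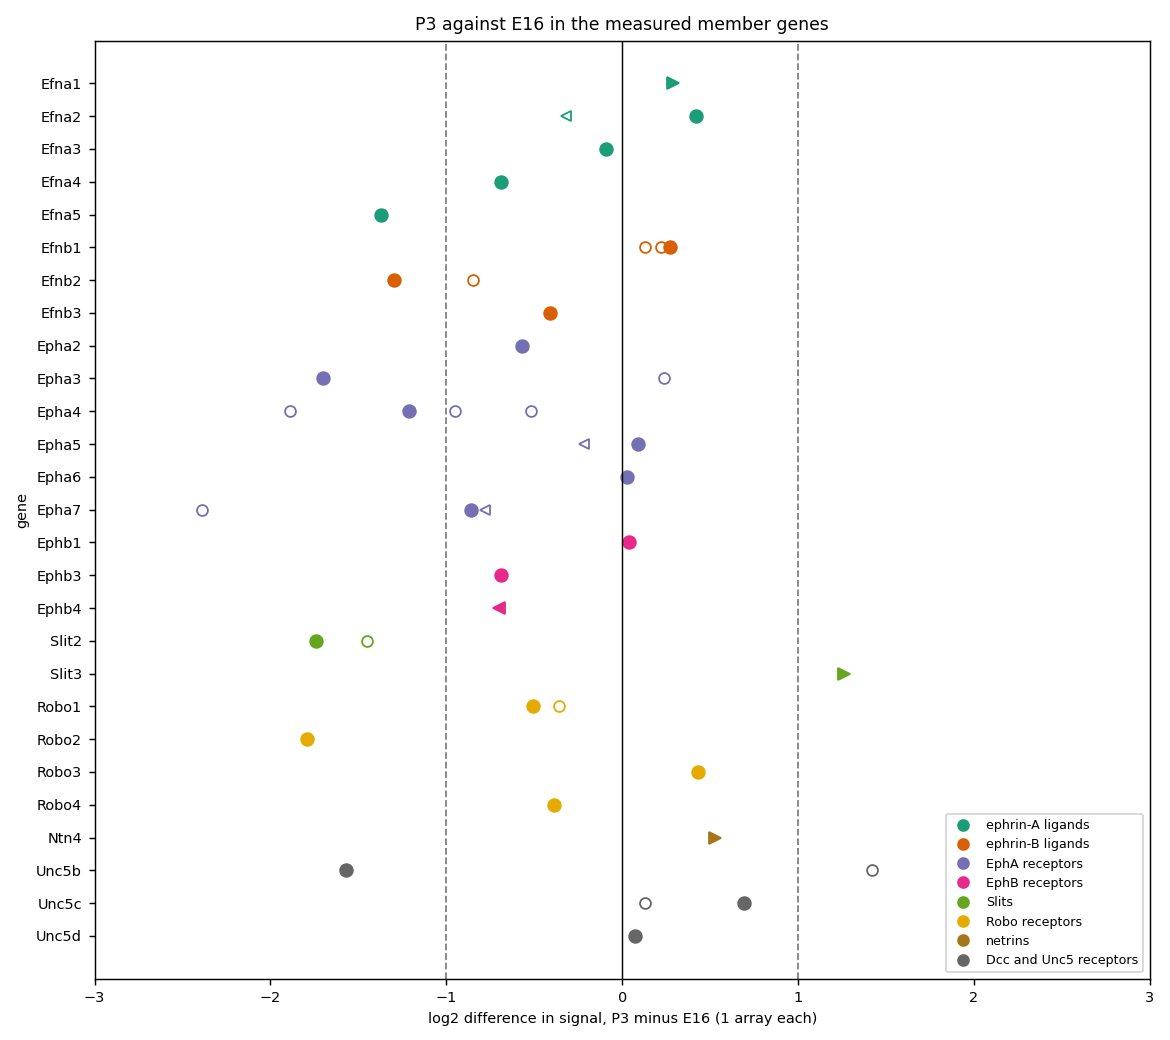
log2 difference between P3 and E16 (P3 minus E16, 1 array each) for the 27 measured member genes, coloured by subfamily. Filled symbols are the brightest probe set and open symbols the other measured ones, triangles are bounds with 1 side at the floor, and dashed lines mark 2-fold. Slit2, Robo2, Epha4 and Efna5 lie to the left in the brightest probe set, Slit3 to the right, and Unc5b has 1 probe set on each side.

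The Slits, secreted repellents cleaved into fragments that bind Robo, went in opposite directions. Slit2 read 2628.7 at E16, 2927 at E18 and 787.2 at P3 in its brightest probe set, and 867.6, 677.8 and 318.4 in a second. The embryonic arrays were both high and the P3 array low, 3.34-fold and 2.72-fold below E16 and 3.72-fold and 2.13-fold below E18. The remaining probe set stayed below the floor, at no more than 81.7, and is not compared. Both Slit2 calls held under all 7 alternatives.

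Slit3, by its single probe set, read 28.6 at E16, 49.6 at E18 and 196.4 at P3. It was below the floor on both embryonic arrays, so its P3 signal gives a bound of at least 2.39-fold over either of them. The unfloored ratio of P3 to E16 was 6.86. No other member passed 2-fold upward at P3 in its brightest probe set, against E16 or against E18. The other Unc5b probe set did, by 2.67-fold and 2.12-fold. Doubling the floor to 164.0 left Slit3 at under 2-fold. Slit1, the Slit of the central nervous system, did not exceed 57.9 in either probe set.

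Each of Slit2 and Slit3 carries a copy of the microRNA gene for miR-218 within its span. The sequences are from RefSeq, build GRCm38.p6. Slit2 spans chr5:47981291-48307735 and holds Mir218-1, whose 5p arm lies at chr5:48223966-48223986 on the plus strand. Slit3 spans chr11:35121456-35708507 and holds Mir218-2, with its 5p arm at chr11:35616840-35616860, also on the plus strand. The 5p arm is identical in both, with its seed (bases 2 to 8) in capitals:
mmu-miR-218-5p: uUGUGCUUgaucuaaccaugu
The array did not measure mature microRNAs, so only the host transcripts are compared here. Robo1 is a known target of miR-218.

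The promoters of the Slit pair are shown because the genes differ in direction, beside those of Epha4 and Epha7, which were lowest at P3 in every probe set that reached the floor. Each is the 150 bases before the start site listed in the RefSeq promoter table, 5′ to 3′, with GGGCGG on either strand (CCGCCC when read on this strand), a GC box bound by Sp1-type factors, in capitals. They lie at chr5:47983005-47983154 (plus) for Slit2, chr11:35121306-35121455 (plus) for Slit3, chr1:77515089-77515238 (minus) for Epha4 and chr4:28812981-28813130 (plus, the first of 2 listed starts) for Epha7. The Slit2 window lies inside the gene span given above, after its first base:
Slit2: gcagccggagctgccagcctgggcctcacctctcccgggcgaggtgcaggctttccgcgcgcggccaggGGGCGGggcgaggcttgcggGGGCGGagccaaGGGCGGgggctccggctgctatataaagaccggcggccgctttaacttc
Slit3: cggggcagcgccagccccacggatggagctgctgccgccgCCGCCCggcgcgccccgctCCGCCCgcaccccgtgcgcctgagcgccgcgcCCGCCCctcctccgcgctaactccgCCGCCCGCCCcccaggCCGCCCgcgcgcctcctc
Epha4: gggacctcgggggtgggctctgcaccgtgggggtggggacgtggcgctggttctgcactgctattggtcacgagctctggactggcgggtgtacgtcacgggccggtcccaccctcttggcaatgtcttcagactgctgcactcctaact
Epha7: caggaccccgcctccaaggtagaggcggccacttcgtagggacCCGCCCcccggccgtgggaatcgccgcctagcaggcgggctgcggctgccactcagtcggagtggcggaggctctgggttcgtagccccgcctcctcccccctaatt
GGGCGG occurred 3 times for Slit2, 6 times for Slit3 (some of them overlapping), 0 times for Epha4 and once for Epha7. It occurs in 28.6% of 32851 promoter windows of the same length. GC content was 73.3%, 85.3%, 64.7% and 71.3%, against a median of 54.0%. TATAAA was found for Slit2 alone (7.57% of all windows hold it on either strand), CCAAT for Epha4 alone (24.5%), and CANNTG, which reads the same on both strands, in none of the 4 (47.7%). A match is a description of letters and not a binding site. Of the 35 member genes, 30 are in the promoter table.

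**Figure D4:**
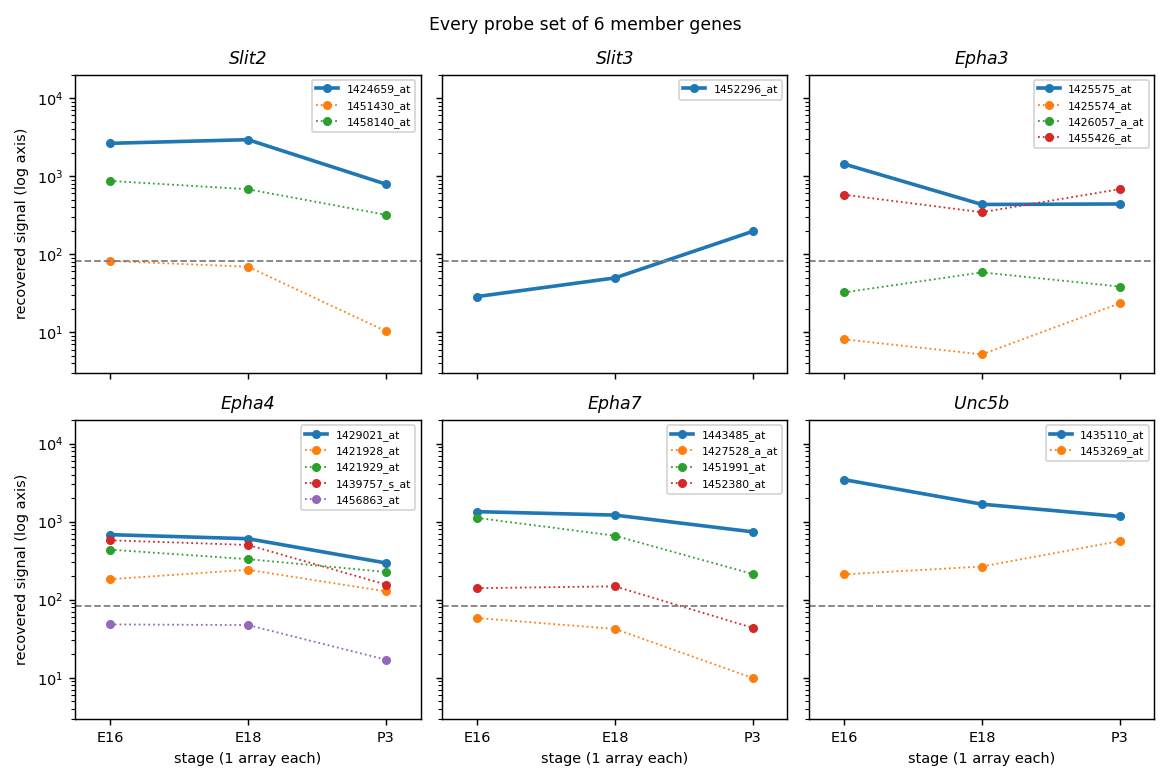
Recovered signal (log axis, arbitrary units) of every probe set of Slit2, Slit3, Epha3, Epha4, Epha7 and Unc5b at E16, E18 and P3, 1 array each. Thick solid lines are the brightest probe set, thin dotted lines the others, and the dashed line is the floor of 82.0. The probe sets of Slit2, Epha4 and Epha7 that reach the floor are lowest at P3, while those of Unc5b cross the stages in opposite directions.

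The Robo receptors had all 4 genes measured. Robo2, an axon receptor for Slits that also acts in kidney and other organs, read 709.3 at E16, 334.9 at E18 and 205.3 at P3. It was lower on each later array, 2.12-fold at E18 and 3.45-fold at P3 against E16, the widest fold in that pair among members whose brightest probe set was at or above the floor on both arrays. It has 1 probe set. The P3 difference held under all 7 alternatives, and that of E18 became 1.95-fold after quantile normalization and 1.97-fold after median scaling. The summed signal of the dental mesenchyme markers was 11843.5 at E16, 7015.0 at E18 and 6614.0 at P3. At E18 against E16, 7 of the 10 were at least 2-fold lower, against 8.13% of all genes, and 2 were higher, against 8.08%. The higher ones were Dlx2 (8.47-fold) and Msx2 (2.02-fold). The part of these markers' cells in the Robo2 and Epha3 values was not tested.

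Robo1, the most widely made Robo, read 784.1, 950.9 and 549.0, so that P3 was 1.43-fold below E16 and 1.73-fold below E18. A second probe set read 121.7, 84.9 and 94.9, 1.28-fold lower at P3, and the third stayed below the floor. Robo3, which lets commissural axons cross the midline, read 88.2, 75.3 and 119.0, around the floor. Robo4, made by endothelium, read 167.1, 146.8 and 127.3, lower by 1.31-fold from E16 to P3. Robo1, Robo3 and Robo4 were thus under 2-fold in all comparisons.

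Of the netrins, Ntn1 did not reach the floor in either probe set, with at most 76.0, at P3. Ntn4, a laminin-related netrin of basement membranes, read 31.2 at E16, 102.6 at E18 and 118.2 at P3. It was below the floor at E16 and above it later, at least 1.25-fold and at least 1.44-fold higher than at E16. Its other probe set read 2.2, 6.6 and 3.0. With the floor halved to 41.0, Ntn4 and Efna1 joined Slit3 as members past 2-fold upward at P3 against E16.

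Dcc, the attractive netrin receptor, stayed below the floor in all 3 probe sets, with at most 55.3 at E16 and 21.7 at P3. Of the Unc5 receptors, Unc5b, the one found in vessels and many embryonic tissues, gave opposite answers by probe set. The brightest read 3452 at E16, 1672.0 at E18 and 1163 at P3, lower on each later array, by 2.97-fold at P3. The other read 211.1, 266.0 and 564.2, higher on each later array, by 2.67-fold at P3. Both are above the floor on every array. The median over probe sets was 1.05-fold lower, so no direction can be given for Unc5b.

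Unc5c, a repulsive netrin receptor, read 204.2, 202.4 and 328.4 in the brightest probe set and 254.1, 146.8 and 278.7 in the other. Both were highest at P3, by 1.61-fold and 1.10-fold against E16. Unc5d read 307.7, 273.1 and 323.5 and was nearly level. Unc5a did not exceed 43.3.

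At P3 against E16, 9 members had 2 or more probe sets at or above the floor on both arrays. The probe sets of 7 of the 9 pointed the same way, against 58.7% of 3981 genes in general, and those of Epha3 and Unc5b did not. With bounds included, that is, probe sets at the floor on 1 of the 2 arrays, 7 of 11 members pointed 1 way (63.6%), against 57.6% of 5071 genes, and Efna2 and Epha5 also disagreed. The SD between probe sets of a gene was 0.86 for the 9 members, above the 0.61 of all genes. At E18 against E16 the members agreed less often than genes in general. By the rule of both arrays at or above the floor, 4 of 10 pointed 1 way (40.0%), against 49.6% of 4046 genes. The 6 that did not were Efnb1, Epha4, Epha7, Robo1, Slit2 and Unc5b. At P3 against E18, 6 of 9 members pointed 1 way (66.7%), against 54.9% of 3994 genes.

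Other genes of these pathways, a list of 56 adaptors, regulators of small GTPases, co-receptors and other ligands, were compared for context. Of 53 with a probe set of a single gene symbol, 47 were measured at P3 against E16. Of these, 5 were at least 2-fold higher, against 6.57% of all genes, and 8 were lower, against 15.6%. The other 34 were under 2-fold, and the median was -0.03. The lower ones included Itsn1, an exchange factor downstream of EphB receptors, at 3.81-fold (1933, 731.4 and 507.5). Evl, an actin regulator of the Ena/VASP family, was 3.36-fold lower (667.3, 589.2 and 198.6). The other lower genes measured on both arrays and named by size were the Rac regulator gene Chn2 (2.38-fold), the kinase gene Src (2.30-fold) and the adaptor gene Crk (2.14-fold). The higher ones included the Slit-binding dystroglycan gene Dag1 (2.40-fold), the Eph phosphatase gene Ptpro (2.33-fold) and Sipa1l1 (2.19-fold). Genes of this list with only a bound are not named.

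Other probe sets qualify several of these. Of the other Dag1 probe sets, 1 was lower and 2 were higher at P3 than at E16, with log2 differences of -0.34 to 0.32. The other Sipa1l1 probe sets gave -1.27, -0.67 and 0.42. The 5 other measured ones of Itsn1 ran from -0.10 to -1.23, all lower. Those of Evl gave only bounds, of -0.71, -0.01 and 0.10. Those of Crk gave -0.53 and -0.88, and bounds of -0.29 and -0.63. None of these Evl and Crk values reached 2-fold, though a bound can understate a difference. Another Src probe set gave a bound of -1.27. Neo1, the netrin and RGM receptor related to Dcc, read 1922, 2987 and 1528 in its brightest probe set. Of its 4 others, 3 were lower at P3 than at E16 and 1 was higher, with log2 differences from -1.29 to 0.88. At E18 against E16 the list had 5 higher and 4 lower of 45, where 8.08% of all genes were higher and 8.13% lower. At P3 against E18 it had 3 higher and 4 lower of 48, where 4.08% of all genes were higher and 11.8% lower. The medians of the list were 0.13 and -0.16.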

How the data were processed

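RNA of 3 pooled samples was measured on 1 array each. The deposited table holds a ratio for each of 45101 probe sets. Per the submitters' processing notes GCOS was used (no version listed), and how the authors scaled and centred the deposited ratios is not given in the sources used here. In 90.4% of probe sets the middle ratio was 1 within 1e-06. In the other 4347, 99.98% of ratios were multiples of 1 step per array, to within 0.01 of a step, with factors of 0.7177 (E16) and 1.0802 (E18) relative to P3.

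A signal was recovered as the smallest number of steps of 0.1 signal units for which all arrays came out whole, to a relative 3e-07. Where steps were known, 17.2% of probe sets would be understated by a common factor, which leaves ratios between stages unaffected but can put a signal below the floor, so that a difference becomes a bound or a gene is left out. Signals under the floor were set to it before log2, so a difference with 1 side there is a bound, written "at least". A gene was measured when 1 of the 2 arrays reached the floor.

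All members were named, and other pathway genes past 2-fold, up to 5 in each direction by size among those measured on both arrays. Of these, 1 is not reported here. Neo1 was added after its values were seen. Members and lists were chosen with earlier results of these data known. The procedure was checked on simulated data. Alternatives were quantile normalization, median scaling over the 18900 probe sets that reached the floor on all arrays, a floor halved, doubled or absent, the median over probe sets, and probe sets without a suffix in their name. Python 3.11.15, numpy 2.4.6, pandas 2.3.3 and matplotlib 3.10.9 were used.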

Additional observations from a re-analysis of the deposited data

How the results depend on the processing

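No paired analysis was possible because each stage has 1 array. Of 63 values of the counts and medians under 7 alternatives, 49 stayed within 1.5 times the main count or, for medians, within the spread between probe sets with the same sign. For medians this limit is wide. The spread (0.54 or 0.61) exceeds each main median (-0.08, -0.35 and -0.41), so any smaller median of the same sign stayed within it. At P3 against E16 the members' median went from -0.41 to -0.11 under median scaling and to -0.17 after quantile normalization. Median scaling turned the members' median at E18 against E16 from -0.08 to 0.04, while that of all genes went from -0.04 to 0.05. The count of members higher at E18 than at E16 was 2, and 4 with the floor halved or absent, 1 with it doubled and 1 by the median over probe sets. The count higher at P3 than at E16 was 1, and 3 with the floor halved or absent and 0 with it doubled. That at P3 against E18 was 1, and 2 with no floor and 0 with it doubled. The count lower at E18 than at E16 was 3, and 5 with no floor and 1 after median scaling. That at P3 against E18 was 4, and 2 after either scaling. Counts lower at P3 than at E16 ranged from 5 to 9 around 7. Of the 8 members past 2-fold at P3 against E16, 3 (Slit2, Robo2 and Efna5) passed under every one of the 7 alternatives. Signals under the floor limit 8 members, which have no comparison, and 1 array per stage limits all of them.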
